A study of Mus musculus with 3 samples.

Results

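The genes described here encode 10 components of VEGF and angiopoietin signaling, the ligands Vegfa, Vegfb, Vegfc, Pgf and Angpt2 and the receptors Kdr, Flt1, Nrp1, Tek and Tie1. They were chosen by name, and all 10 were found among the 31053 genes of the raw count files. Their counts were followed in each tumor and in each class of cells named from markers, to locate the sources of the ligands and the cells that carry the receptors. None of the 10 genes served as a marker.

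VEGF ligands are secreted by tumor, immune and stromal cells and act on receptor tyrosine kinases of the endothelium, where Kdr carries most of the growth signal, Flt1 binds ligand tightly but signals weakly, and Nrp1 is a co-receptor. Angiopoietins act on the receptor Tek, whose signaling Tie1 modifies, and Angpt2, released by activated endothelium, loosens the contacts between endothelial cells and the mural cells around them. Both systems are known for their part in the growth and remodeling of tumor vessels.

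Whole neuroblastomas of 3 TH-MYCN mice, 1 tumor per mouse and all of a single group, were dissociated and profiled by droplet-based single-cell RNA sequencing, in which each captured molecule is counted once by its unique molecular identifier (UMI). The mice were heterozygous for a transgene in which the tyrosine hydroxylase promoter drives MYCN in cells of the sympathoadrenal lineage. Tumors 1, 2 and 3 were taken at 62, 79 and 63 days of age, and the labels state no treatment. The authors kept 1914, 1221 and 2515 of the 3257, 4327 and 6038 barcodes, with 12628163, 2740537 and 5215401 UMIs and medians of 4282, 1594 and 1816 UMIs per cell. Tumors 1 and 2 shared 3 kept cell barcodes, tumors 2 and 3 shared 1 and tumors 1 and 3 shared 0. With a single group, the comparisons possible are those between the cell classes of a tumor.

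Endothelial-like cells numbered 45, 20 and 32 in tumors 1, 2 and 3, and UMIs of 10 of 10 endothelial markers were found in each tumor, with a summed level of 8477, 7121 and 7807 CPM (UMIs of a gene per 1000000 UMIs of the class). The most abundant of these markers was Cdh5, Plvap and Egfl7, respectively, at 1458, 1682 and 1550 CPM. The lymphatic markers differed between tumors in these cells, with 5, 5 and 2 of 5 detected and summed levels of 80.9, 915 and 41.4 CPM, so the endothelial-like cells of tumor 2 carried the highest lymphatic signal, led by Lyve1 at 344 CPM. Fibroblast markers summed to 398, 88.5 and 8.29 CPM and macrophage markers to 1071, 1023 and 365 CPM in the same cells. Their part in the levels given for endothelial-like cells was not tested.

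CAF-like cells numbered 46, 9 and 30, so tumor 2 gave no CAF-like sum, for which at least 10 cells were required. All 7 fibroblast markers were found in each tumor, at summed levels of 38881, 31778 and 14483 CPM. The CAF-like cluster also held pericyte markers, with 8, 6 and 7 of 8 detected and summed levels of 6449, 4439 and 8323 CPM, so it combined fibroblast-type and pericyte-type cells. Tumor-like cells numbered 363, 932 and 2019, or 19.0%, 76.3% and 80.3% of the kept cells, with 9 of 9 markers detected in each tumor. Macrophage-like cells numbered 610, 101 and 186 and neutrophil-like cells 236, 54 and 22, with all 8 markers of their own class detected in every tumor. A further 230 kept cells (4.07%) remained unnamed and entered no comparison.

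Vegfa, on chromosome 17 from 46016993 to 46032369 of GRCm38, encodes the main ligand of Kdr. In tumor-like cells it stood at 23.6, 27.4 and 24.9 CPM in tumors 1, 2 and 3 (mean 25.3 ± 1.92, SD, n = 3), from 15, 49 and 96 UMIs. Macrophage-like cells had 23.6, 27.6 and 11.8 CPM (21.0 ± 8.21, n = 3), from 142, 11 and 8 UMIs. The level was 29.7, 37.5 and 22.4 CPM in neutrophil-like cells (29.9 ± 7.55, n = 3), where the last value rests on 1 UMI. In CAF-like cells of tumors 1 and 3 it was 43.9 and 16.0 CPM (29.9 ± 19.7, n = 2), from 41 and 2 UMIs. The ranges of these classes overlapped, so no order among them held beyond the spread between tumors. Endothelial-like cells, which carry the receptors, had 2 Vegfa UMIs in tumor 1 (4.26 CPM) and 0 in tumors 2 and 3, which allows up to 29.5 and 24.9 CPM there. T cell-like cells had no Vegfa UMI in any of the 3 tumors, which allows up to 3.88, 36.6 and 31.5 CPM.

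The classes that held the Vegfa transcripts differed between tumors. Pooled over tumors, 39.3% of the 410 UMIs lay in macrophage-like cells (95% exact binomial interval 34.5 to 44.2), 39.0% in tumor-like cells (34.3 to 43.9), 10.7% in CAF-like cells and 6.59% in neutrophil-like cells. With cells assigned one by one from their markers, the macrophage-like and tumor-like shares were 28.2% and 25.0%, and erythroid-like cells held 23.5%. In tumor 1, macrophage-like cells held 61.2% (54.6 to 67.5) and tumor-like cells 6.47% (3.66 to 10.4). In tumor 2 it was the reverse, with 71.0% in tumor-like cells (58.8 to 81.3) and 15.9% in macrophage-like cells. Tumor-like cells held 88.1% in tumor 3 (80.5 to 93.5), against 7.34% in macrophage-like cells. The share of kept cells that were tumor-like moved with the tumor-like share of Vegfa (19.0%, 76.3% and 80.3%), and its part in the shift was not tested.

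Before thinning, a Vegfa UMI was found in 30.8% of mesothelial-like, 18.8% of CAF-like, 7.8% of macrophage-like and 6.09% of neutrophil-like cells, whose median depths were 20624, 8727, 6305 and 2468 UMIs. It was found in 4.19% of tumor-like cells (139 of 3314, interval 3.54 to 4.93, median depth 1662 UMIs), against 0 of 228 T cell-like cells with a median of 1946 UMIs, which allows up to 1.32%, and 0.408% of 245 B cell-like cells with a median of 4055 UMIs. With every cell thinned to 500 UMIs, the share was 1.09% in tumor-like (0.762 to 1.5), 1.92% in neutrophil-like (0.709 to 4.14) and 0.78% in macrophage-like cells (0.314 to 1.6), with 0 of 245 B cell-like and 0 of 228 T cell-like cells. The upper limits of these zeros, 1.22% and 1.32%, lie within the intervals of all 3 classes, so at that depth none of them could be told from background. Thinned to 1000 UMIs, the tumor-like share was 2.08% (interval 1.61 to 2.65), above the limits of 0 of 241 B cell-like cells (1.24%) and 0 of 227 T cell-like cells (1.32%). The neutrophil-like share of 3.02% (1.39 to 5.66) was also above these limits, although not above the ends of the exact intervals of the same zeros (1.52% and 1.61%), which the tumor-like interval met. The macrophage-like share of 1.5% (0.801 to 2.55) still overlapped both limits. These shares pool the cells of the 3 tumors, and their intervals take cells rather than tumors as units. Tumor 1 gave 204 of the 245 B cell-like cells but 363 of the 3314 tumor-like cells. Differences between classes in these shares can therefore not be told apart from differences between tumors.

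Each class was compared with the mean of the others, all weighted equally, and Vegfa was called higher in 4 classes by edgeR's quasi-likelihood test with Benjamini-Hochberg adjustment over all genes. For fold changes this mean is over log-scale levels, so classes near 0 lower it and fold changes exceed those over the average CPM. Tumors counted as higher, here and below, are set against the arithmetic mean of CPM. The 2 can differ, as for macrophage-like Nrp1, with a log2 fold change of 1.97 but higher in 0 of 3 tumors. In tumor-like cells its log2 fold change was 2.43 (SE 0.53, adjusted p = 0.0031 by edgeR's quasi-likelihood test and Benjamini-Hochberg), where Vegfa exceeded the mean of the others in 3 of 3 tumors. It was 3.19 in neutrophil-like (3 of 3 tumors), 3.0 in CAF-like (2 of 2) and 2.24 in macrophage-like cells (2 of 3), with adjusted p values of 3.9e-04, 9.2e-04 and 0.0079 by edgeR's quasi-likelihood test and Benjamini-Hochberg. These calls hung on a filter. Genes needed 41.2 CPM in at least 1 of 27 sums to be tested, and Vegfa passed through 1 sum, the CAF-like cells of tumor 1 at 43.9 CPM. Of the 24 settings tried, Vegfa was tested in 14, and it was called in 13 of these in neutrophil-like, 12 in CAF-like, 10 in tumor-like and 9 in macrophage-like cells. It fell below the filter without tumor 1, and also under each of the 3 earlier rules for naming clusters, so the naming rule that was kept, which was set after the clusters had been seen, decided whether Vegfa was tested at all. Set against all other cells of the same tumor summed together, its log2 fold changes were 0.30 in tumor-like, 0.34 in macrophage-like, 0.99 in neutrophil-like and 0.49 in CAF-like cells, and none was called.

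Vegfb, a ligand of Flt1, lies on chromosome 19 from 6982473 to 6987651. Its level in tumor-like cells was 48.8, 55.9 and 43.6 CPM in tumors 1, 2 and 3 (49.4 ± 6.17, n = 3), from 31, 100 and 168 UMIs. T cell-like cells followed with 9.06, 48.8 and 42 CPM (33.3 ± 21.2), of which the last 2 values rest on 4 UMIs each. The ranges of these classes overlapped. Tumor-like cells held 62.0% of the 482 UMIs (interval 57.5 to 66.4) and macrophage-like cells 17.8%, but the order was reversed in tumor 1, with 19.1% in tumor-like and 37.7% in macrophage-like cells. In tumors 2 and 3, tumor-like cells held 85.5% and 82.8%. Before thinning, a UMI was found in 8.0% of tumor-like cells (interval 7.10 to 8.97, median depth 1662 UMIs), against 6.14% of T cell-like cells (3.40 to 10.1, median depth 1946 UMIs), and these intervals overlapped. Thinned to 500 UMIs, the share was 2.47% in tumor-like cells (1.97 to 3.06), apart from 0 of 228 T cell-like cells (up to 1.32%) but not from 0.816% of B cell-like cells (0.099 to 2.92). With 1000 UMIs it was 4.62% (3.91 to 5.41), apart from 1.24% of B cell-like cells (0.257 to 3.59) but not from 2.2% of T cell-like cells (0.719 to 5.07). As for Vegfa, these shares pool cells over tumors, so classes set apart by them may differ by tumor. Its log2 fold change in tumor-like cells was 1.51 (SE 0.43, adjusted p = 0.011 by edgeR's quasi-likelihood test and Benjamini-Hochberg, higher than the mean of the others in 3 of 3 tumors). Vegfb was tested in 18 of the 24 settings and called in 11 of these. It was not tested without tumor 1, and was not called without tumor 2 (1.39, adjusted p = 0.067) or without tumor 3 (2.03, adjusted p = 0.1 in both cases by edgeR's quasi-likelihood test and Benjamini-Hochberg).

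In tumor-like cells, 2 of the 10 members were called higher, Vegfa and Vegfb, where 27.4% of all 9799 genes tested were higher, so the count of members did not exceed the background. No member was called lower by edgeR, which called 1.42% of all genes lower, or by DESeq2, and 0 were lower at an unadjusted p under 0.05. The median log2 fold change was 0.36 over the members and 0.55 over all genes. When tumor-like cells were set against all other cells of the same tumor summed together, 5 members were called lower. No share of all genes is given for that comparison, so this count cannot be set against the background. In macrophage-like and in neutrophil-like cells the call of Vegfa was 1 of 10, against 10.5% and 14.3% of all genes, which again is near the background. With the tumor as a replicate block, 2 were called in macrophage-like cells, where 17.3% of all genes were higher. Nrp1 was gained there (log2 fold change 2.05, adjusted p = 0.044 by edgeR's quasi-likelihood test and Benjamini-Hochberg). With the same block, 1 was called in neutrophil-like cells, where 17.9% of all genes were higher. Without the block, the counts at an unadjusted p under 0.05 were 3 and 1. No member was called lower in either class by edgeR, which called 0.0816% and 1.09% of all genes lower, or by DESeq2, and 0 were lower at an unadjusted p under 0.05.

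Vegfc, the ligand of the lymphatic receptor encoded by Flt4, lies on chromosome 8 from 54077606 to 54187096. In endothelial-like cells it stood at 46.8, 0 and 41.4 CPM in tumors 1, 2 and 3 (29.4 ± 25.6, n = 3), from 22, 0 and 5 UMIs. A count of 0 in tumor 2 allows up to 29.5 CPM. Mesothelial-like cells of tumor 1, 16 cells, had 43.2 CPM from 23 UMIs. Tumor-like cells had 3 UMIs in 3314 cells. The largest share of the Vegfc UMIs lay in macrophage-like cells, with 40.7% of 135 (interval 32.4 to 49.5), followed by 22.2% in mesothelial-like and 20% in endothelial-like cells, although the macrophage-like level was low at 8.64, 0 (up to 7.53) and 4.44 CPM. With the corrected counts, macrophage-like cells held 67.2% of 64, endothelial-like cells 12.5% and mesothelial-like cells 9.38%. The macrophage-like share in the raw counts rested on tumor 1, which held 52 of the 55 macrophage-like UMIs. In tumor 3, macrophage-like cells had 3 of 18 UMIs and mesothelial-like cells 7, and tumor 2 had 1 Vegfc UMI in all. Within the macrophage-like cells, 54 UMIs came from the Pecam1+-like subset, 1 from the Ccr2+-like and 0 from the Apoe+-like subset. The Pecam1+-like level was 21.4 CPM in tumor 1, 0 in tumor 2 (up to 17.9) and 11.1 CPM in tumor 3. Vegfc was below the filter on low counts in the comparison of subsets. Its log2 fold change in endothelial-like cells was 4.67 (SE 0.99, adjusted p = 0.0023 by edgeR's quasi-likelihood test and Benjamini-Hochberg, higher in 2 of 3 tumors). Vegfc was tested in 14 of the 24 settings, and the call was lost with DESeq2 and against all other cells summed together. It was not tested without tumor 1.

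Pgf, which encodes placental growth factor, a ligand of Flt1, lies on chromosome 12 from 85166635 to 85177790. CAF-like cells had 44.9 and 112 CPM in tumors 1 and 3 (78.5 ± 47.5, n = 2), from 42 and 14 UMIs. In endothelial-like cells the level was 38.3, 9.84 and 0 CPM (16.0 ± 19.9, n = 3), from 18, 1 and 0 UMIs, where the 0 allows up to 24.9 CPM. The ranges of these sums did not overlap, but the 9 CAF-like cells of tumor 2 had 26.5 CPM from 2 UMIs, within the endothelial-like range. CAF-like cells held 59.2% of the 98 UMIs (interval 48.8 to 69.0), and 5.21% (1.71 to 11.7) with cells assigned one by one from their markers. On the log2 scale, Pgf was higher by 6.97 in CAF-like cells (SE 0.86, adjusted p = 1.5e-05, higher in 2 of 2 tumors) and 4.81 in endothelial-like cells (SE 0.96, adjusted p = 0.0021, higher in 2 of 3 tumors, both by edgeR's quasi-likelihood test and Benjamini-Hochberg). Pgf passed the filter on low counts through the 2 CAF-like sums alone, so it was tested because it is high in these cells and its CAF-like p is not independent of the filter. With no filter it was still called there. The endothelial-like call rested on tumor 1, and without that tumor the log2 fold change was 2.68 and not called. With DESeq2 neither call was kept, and with cells assigned one by one from their markers the CAF-like call was lost.

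Angpt2, the angiopoietin that is stored in endothelial cells and can oppose signaling by Tek, lies on chromosome 8 from 18690263 to 18741562, within a stretch where Mcph1 is annotated on the opposite strand. In endothelial-like cells it stood at 93.6, 472 and 58.0 CPM in tumors 1, 2 and 3 (208 ± 229, n = 3), from 44, 48 and 7 UMIs. Tumor 2 was thus far above the other tumors, and the lymphatic markers moved with it in the same cells (80.9, 915 and 41.4 CPM, with 5, 5 and 2 of 5 detected, led by Lyve1 in tumor 2, and with Lyve1, Pdpn and Reln at 0 in tumor 3). Their part in the Angpt2 level was not tested. CAF-like cells had 155 and 120 CPM in tumors 1 and 3 (138 ± 24.7, n = 2), from 145 and 15 UMIs, within the range of the endothelial-like cells. The 9 CAF-like cells of tumor 2 had 79.5 CPM from 6 UMIs.

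The source of most Angpt2 UMIs changed from tumor to tumor. CAF-like cells held 69.7% in tumor 1 (interval 63.0 to 75.9), endothelial-like cells 75.0% in tumor 2 (62.6 to 85.0) and tumor-like cells 55.8% in tumor 3 (41.3 to 69.5). Pooled over tumors, CAF-like cells held 51.2% of the 324 UMIs (45.6 to 56.8), but 31.2% with the corrected counts and 7.52% with cells assigned one by one from their markers. With the corrected counts, endothelial-like cells held the largest share, 35.9%, and tumor-like cells held 25.8%. In tumor-like cells the level was nevertheless low, at 3.15, 5.03 and 7.53 CPM (5.23 ± 2.20), and 1.21% of them had a UMI against 0.816% of B cell-like and 0.439% of T cell-like cells. The interval for tumor-like cells (0.864 to 1.64) overlapped those of both background classes. Angpt2 had a log2 fold change of 6.25 in endothelial-like cells (SE 0.57, adjusted p = 1.9e-08, higher in 3 of 3 tumors) and 5.96 in CAF-like cells (SE 0.60, adjusted p = 8.7e-08, higher in 2 of 2 tumors, both by edgeR's quasi-likelihood test and Benjamini-Hochberg). Leaving out tumor 2 lowered the endothelial-like value to 5.45, and the call was kept. The CAF-like value reversed to -0.93 at a clustering resolution of 2, where the pericyte-type cells formed a cluster of their own and the mesothelial-like cells joined the CAF-like cluster.

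**Figure D1:**
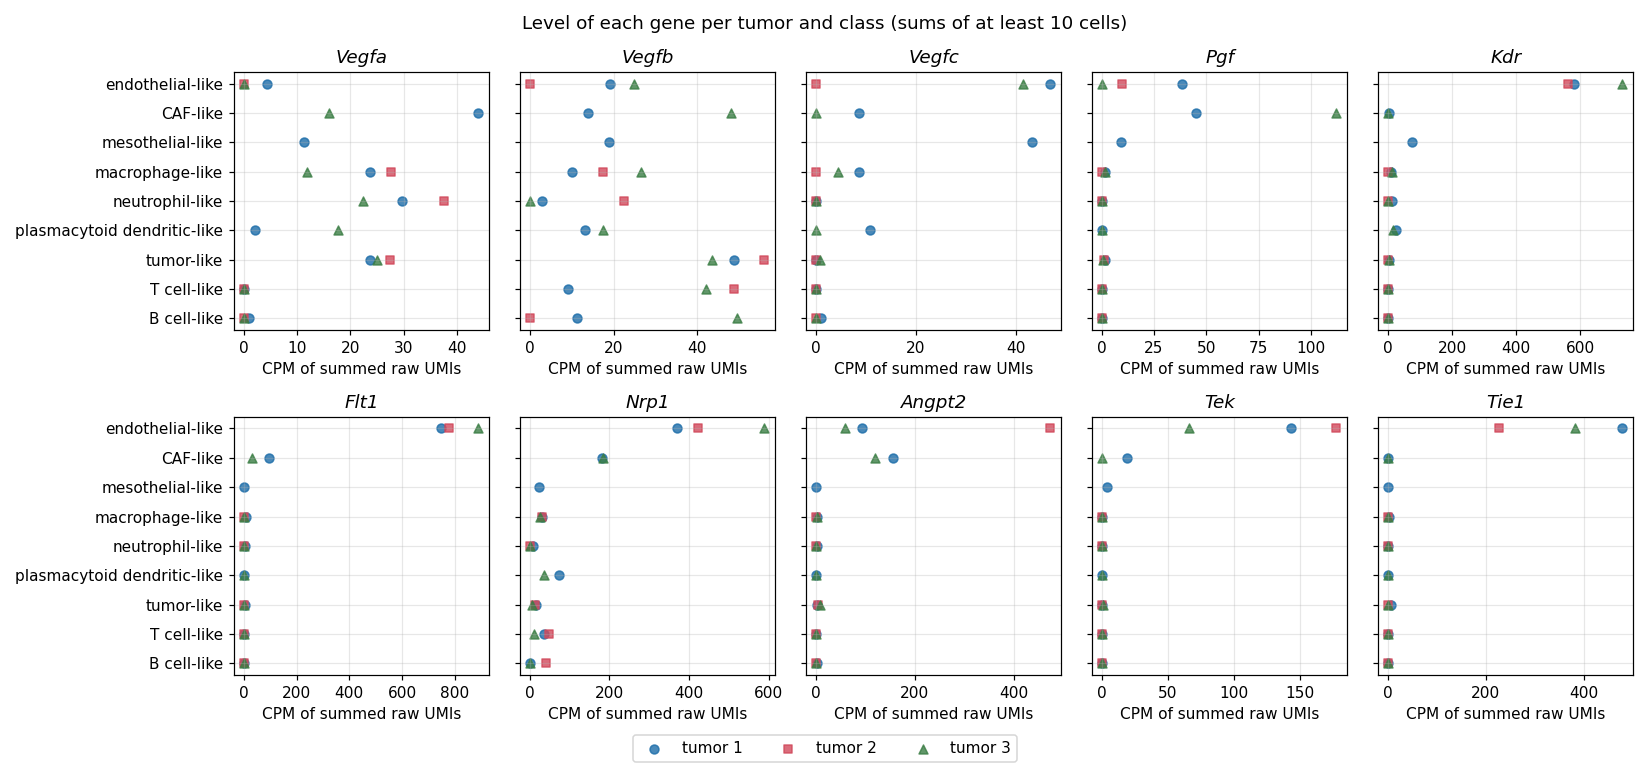
Level of each of the 10 genes (x axis, CPM of the summed raw UMIs, linear scale from 0) in the cell classes (y axis), with 1 point for each tumor and class of at least 10 cells. Kdr, Flt1, Tek and Tie1 points of endothelial-like cells lie apart from those of all other classes shown, while Vegfa points of several classes overlap.

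Kdr, the receptor that carries most of the VEGF growth signal, lies on chromosome 5 from 75932827 to 75978458. In endothelial-like cells its level was 579, 561 and 729 CPM in tumors 1, 2 and 3 (623 ± 92.6, n = 3), from 272, 57 and 88 UMIs. The next classes were the mesothelial-like cells of tumor 1 at 75.0 CPM, from 40 UMIs in 16 cells, and the plasmacytoid dendritic-like cells at 25.1 and 17.6 CPM in tumors 1 and 3 (21.4 ± 5.32, n = 2). Sums of at least 10 cells of these 3 classes did not overlap, but the plasmacytoid value of tumor 3 rests on 1 UMI, and the 4 and 6 mesothelial-like cells of tumors 2 and 3 had 18 and 23.3 CPM, from 1 UMI each, within the plasmacytoid range. Endothelial-like cells held 73.2% of the 570 UMIs (interval 69.3 to 76.8) and macrophage-like cells 11.2%. Kdr had a log2 fold change of 8.10 in endothelial-like cells (SE 0.61, adjusted p = 3.1e-09 by edgeR's quasi-likelihood test and Benjamini-Hochberg, higher in 3 of 3 tumors), between 6.57 and 9.65 over the 24 settings and called in each of them.

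Flt1, a receptor of VEGF-A, VEGF-B and placental growth factor, lies on the same chromosome from 147561604 to 147726011. Its endothelial-like level was 749, 777 and 887 CPM in tumors 1, 2 and 3 (804 ± 72.8, n = 3). CAF-like cells were next, at 95.2 and 32.0 CPM in tumors 1 and 3 (63.6 ± 44.7, n = 2), from 89 and 4 UMIs, and all other classes had means of at most 3.72 CPM. Endothelial-like cells held 76.3% of the 705 UMIs (interval 73.0 to 79.4) and CAF-like cells 14.3%. Its log2 fold change was 9.60 in endothelial-like cells (SE 0.61, adjusted p = 5.1e-10, higher in 3 of 3 tumors) and 6.07 in CAF-like cells (SE 0.78, adjusted p = 6.8e-06, above the mean of the others in 1 of 2 tumors, both by edgeR's quasi-likelihood test and Benjamini-Hochberg). The endothelial-like call was made in each of the 24 settings, and the CAF-like call in 20.

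Nrp1, the co-receptor of VEGF and of class III semaphorins, lies on chromosome 8 from 128358604 to 128503363 and overlaps Mir1903 on the same strand. It was the most widely spread of the receptors. Endothelial-like cells had 370, 423 and 588 CPM in tumors 1, 2 and 3 (461 ± 114, n = 3), and CAF-like cells 182 and 184 CPM in tumors 1 and 3 (183 ± 1.68, n = 2). Plasmacytoid dendritic-like cells had 74.3 and 35.2 CPM in tumors 1 and 3, T cell-like cells 34.9, 48.8 and 10.5 CPM, and macrophage-like cells 29.8, 30.1 and 26.6 CPM. The first 2 of these classes were apart from each other and from the rest, whereas the plasmacytoid dendritic-like, T cell-like and macrophage-like ranges overlapped from class to class. Endothelial-like cells held 32.5% of the 887 UMIs, CAF-like and macrophage-like cells 23.6% each and plasmacytoid dendritic-like cells 7.89%. The order differed between tumors. In tumor 1, macrophage-like, endothelial-like and CAF-like cells had 179, 174 and 170 UMIs. In tumors 2 and 3, endothelial-like cells had 43 and 71, tumor-like cells 25 and 23 and macrophage-like cells 12 and 18. Nrp1 had a log2 fold change of 6.0 in endothelial-like cells (SE 0.50, adjusted p = 4.7e-09, higher in 3 of 3 tumors) and 4.83 in CAF-like cells (SE 0.60, adjusted p = 1.7e-06, higher in 2 of 2 tumors, both by edgeR's quasi-likelihood test and Benjamini-Hochberg), and both were called in each of the 24 settings.

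Tek, the angiopoietin receptor, lies on chromosome 4 from 94739289 to 94874976. Its level in endothelial-like cells was 143, 177 and 66.3 CPM in tumors 1, 2 and 3 (129 ± 56.7, n = 3), from 67, 18 and 8 UMIs. CAF-like cells had 19.3 and 0 CPM in tumors 1 and 3, from 18 and 0 UMIs, where the 0 allows up to 24.0 CPM. Endothelial-like cells held 79.5% of the 117 UMIs (interval 71.0 to 86.4). The endothelial-like log2 fold change was 8.06 (SE 0.69, adjusted p = 3.2e-07 by edgeR's quasi-likelihood test and Benjamini-Hochberg, higher in 3 of 3 tumors), and it was called in 23 of 24 settings, the exception being DESeq2. Tek passed the filter on low counts through the 3 endothelial-like sums alone, so this p is not independent of the filter, and the call was also made with no filter. In CAF-like cells it was 4.86 (SE 0.96, adjusted p = 0.0016 by edgeR's quasi-likelihood test and Benjamini-Hochberg, higher in 1 of 2 tumors). That value rested on tumor 1, without which it was -1.27, and it was -1.11 without the 5% of cells with the most UMIs.

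Tie1, a receptor that forms complexes with Tek, lies on chromosome 4 from 118471191 to 118490061. Its level in endothelial-like cells was 477, 226 and 381 CPM in tumors 1, 2 and 3 (361 ± 126, n = 3), from 224, 23 and 46 UMIs. The next class, the tumor-like cells, had 6.29, 0 (up to 1.68) and 0.259 CPM, and CAF-like cells had no UMI in 85 cells (up to 3.21, 39.8 and 24.0 CPM). Endothelial-like cells held 93.9% of the 312 UMIs (interval 90.7 to 96.3). The log2 fold change was 9.69 (SE 0.68, adjusted p = 7.7e-09 by edgeR's quasi-likelihood test and Benjamini-Hochberg, higher in 3 of 3 tumors), and it was called in each of the 24 settings, that with no filter among them. Like Tek, it passed the filter on low counts through the 3 endothelial-like sums alone, so this p is not independent of the filter. Fitted fold changes this large depend on the prior count, since most other classes were at or near 0.

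**Figure D2:**
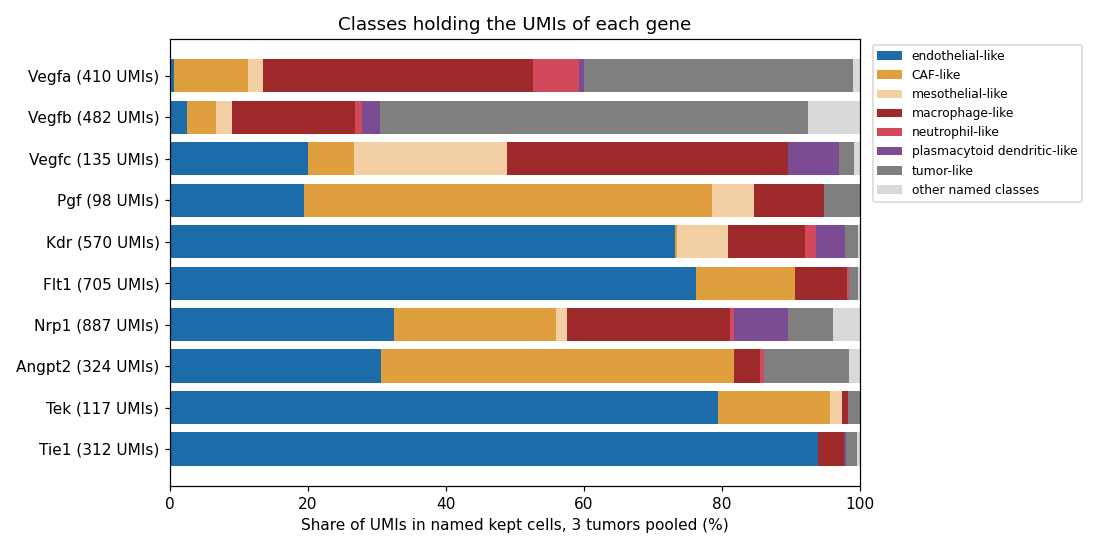
Share of the UMIs of each gene that lay in each cell class (x axis, percent of the UMIs in named kept cells, 3 tumors pooled), with 1 stacked bar per gene. Endothelial-like cells held 93.9% of Tie1 and 73.2% of Kdr UMIs, whereas Vegfa UMIs were divided mainly between macrophage-like and tumor-like cells.

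In endothelial-like cells, 8 of the 10 members were called higher, all but Vegfa and Vegfb, where 11.6% of all 9799 genes tested were higher. The median log2 fold change was 6.12 over the members and 0.35 over all genes. Each of the 10 members passed the filter on low counts. Tek and Tie1 did so through endothelial-like sums alone, and such genes, also those among all genes tested, tend to be called there because of the filter. With no filter, the same 8 members were called, where 8.15% of all 19617 genes were higher. With DESeq2, 5 members and 7.13% of all genes were called higher. Without tumor 1, 6 of the 7 members tested and 17.7% of 4339 genes were. None was called lower by edgeR, which called 0.122% of all genes lower, or by DESeq2, and 0 were lower at an unadjusted p under 0.05. In CAF-like cells, 6 of 10 members were called higher (Vegfa, Pgf, Flt1, Nrp1, Angpt2 and Tek), against 13.8% of all genes, with medians of 3.92 and 0.41. Vegfa and Pgf passed the filter through CAF-like sums alone, and with no filter the same 6 were called, where 11.9% of all genes were higher. DESeq2 called 3, and 6.01% of all genes, and without tumor 1 it was 4 of the 7 members tested and 10.1% of all genes. Again 0 were called lower by edgeR, with 0.0612% of all genes lower, and 0 by DESeq2 or at an unadjusted p under 0.05.

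In single endothelial-like cells before thinning, Flt1 was found in 67.0% of the 97 cells, Kdr in 63.9%, Nrp1 in 60.8%, Tie1 in 58.8%, Tek in 34% and Angpt2 in 29.9%, at a median depth of 3837 UMIs. In B cell-like cells the shares were at most 0.816% for these genes at a median of 4055 UMIs. In T cell-like cells they were at most 0.439% except for Nrp1 at 9.65%, so T cell-like cells were no background for Nrp1. Thinned to 500 UMIs, the endothelial-like shares were 29.9% for Flt1 (interval 21.0 to 40.0), 20.6% for Kdr (13.1 to 30.0), 19.6% for Nrp1 and for Tie1 (12.2 to 28.9), 7.22% for Angpt2 (2.95 to 14.3) and 4.12% for Tek (1.13 to 10.2). In B cell-like cells no UMI of Kdr, Angpt2, Tek or Tie1 remained, which allows up to 1.22%, so the Tek and B cell-like intervals overlapped.

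The receptors were found together in most of these cells. Of the 62 cells with a Kdr UMI, 90.3% also had Flt1, 82.3% Nrp1 and 80.6% Tie1. Of the 33 cells with Tek, 93.9% had Tie1, and Tek was found in 54.4% of the 57 cells with Tie1. All 5 receptors were found in 24 cells, 4 in 25, 3 in 10, 2 in 5, a lone receptor in 16 and none in 17. Angpt2 was found in 29 cells, of which 72.4% had Kdr and 37.9% had Tek. Deeper cells have more of every gene, so these shares also follow depth, whose part was not tested.

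Finer clustering divided the 85 CAF-like cells. At a resolution of 2, 41 of them were named pericyte-like (21, 5 and 15 in tumors 1, 2 and 3) and 44 CAF-like (25, 4 and 15), while the 26 mesothelial-like cells joined the finer CAF-like cluster. Levels are therefore given for the cells of the original CAF-like class alone. Angpt2 was at 340, 249 and 189 CPM in the pericyte-like part, from 143, 6 and 15 UMIs, and at 3.89, 0 and 0 CPM in the CAF-like part, where the zeros allow up to 58.4 and 65.8 CPM. The Angpt2 of the class thus lay mainly in the pericyte-like part. Pgf was at 97.4, 41.5 and 177 CPM in the pericyte-like part, from 41, 1 and 14 UMIs, against 1.95, 19.5 and 0 CPM in the CAF-like part, from 1, 1 and 0 UMIs, where the 0 allows up to 65.8 CPM. For Flt1 the pericyte-like values were 195, 332 and 37.8 CPM and the CAF-like values 13.6, 0 (up to 58.4) and 21.9 CPM, with 3 and 1 UMIs behind those of tumor 3. Tek had no UMI in the 41 pericyte-like cells, which allows up to 7.13, 125 and 37.8 CPM, and was at 35, 19.5 and 0 CPM in the CAF-like part, from 18, 1 and 0 UMIs, so the parts were apart in tumor 1 alone. Nrp1 was found on both sides, at 181, 457 and 240 CPM in the pericyte-like and 183, 97.3 and 87.8 CPM in the CAF-like part. No test between these parts was made.

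The macrophage-like cells, clustered again by themselves, were divided into Apoe+-like, Ccr2+-like and Pecam1+-like subsets, each compared with the mean of the remaining subsets. Nrp1 alone, 1 of the 10 members, passed the filter on low counts in these sums. It stood at 80.1, 38.0 and 42.5 CPM in Apoe+-like cells of tumors 1, 2 and 3 (53.5 ± 23.1, n = 3), at 21.4, 21.7 and 50.4 CPM in Ccr2+-like cells (31.2 ± 16.6) and at 9.23, 23.8 and 0 CPM in Pecam1+-like cells (11 ± 12.0), where the 0 allows up to 11.1 CPM. The Apoe+-like range overlapped that of the Ccr2+-like cells and not that of the Pecam1+-like cells. The log2 fold change was 1.77 in Apoe+-like (SE 0.58), 0.34 in Ccr2+-like (SE 0.66) and -2.11 in Pecam1+-like cells (SE 0.69), with adjusted p values of 0.14, 1 and 0.17 by edgeR's quasi-likelihood test and Benjamini-Hochberg. So 0 of 1 members was called higher in each subset, where 2.82%, 0.108% and 1.29% of the 4645 genes tested were higher, and 0 lower, where 0.883%, 0.0215% and 1.03% were lower. DESeq2 also called 0, while at an unadjusted p under 0.05 Nrp1 passed in 1 direction in Apoe+-like and in Pecam1+-like cells. When the tumor was a replicate block, the Apoe+-like and Pecam1+-like values were 2.04 and -2.11 and both were called, where 8.27% of all genes were higher in the former and 4.46% lower in the latter (adjusted p = 0.0055 and 0.016 by edgeR's quasi-likelihood test and Benjamini-Hochberg). Without tumor 3, the Ccr2+-like value was -0.33.

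The other ligands of the subsets are given as levels. Vegfa was at 26.7, 38.0 and 9.81 CPM in Apoe+-like cells, at 37.6, 0 (up to 65.1) and 30.2 CPM in Ccr2+-like cells and at 8.39, 23.8 and 7.39 CPM in Pecam1+-like cells. Of the macrophage-like Vegfa UMIs, 46, 89 and 26 came from these subsets, 86 of them from the Ccr2+-like cells of tumor 1. Vegfb was at 34.1, 32.6 and 39.2 CPM in Apoe+-like cells, at 2.19, 0 and 30.2 CPM in Ccr2+-like and at 4.20, 5.95 and 11.1 CPM in Pecam1+-like cells. The Apoe+-like values rest on 46, 6 and 12 UMIs. The Ccr2+-like value of 30.2 CPM rests on 3 UMIs, and the 0 in tumor 2 allows up to 65.1 CPM, so Vegfb in Apoe+-like cells could not be told apart from that in Ccr2+-like cells of tumors 2 and 3.

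The other genes of the pathway were taken as lists, and their counts are set beside the shares of all genes called higher, which were 11.6% in endothelial-like, 27.4% in tumor-like, 10.5% in macrophage-like, 14.3% in neutrophil-like and 13.8% in CAF-like cells. By DESeq2 these shares were 7.13%, 1.55%, 4.14%, 14.5% and 6.01% in the same order, and 16.8% of all genes were lower in tumor-like cells. Some list genes passed the filter on low counts through sums of the class alone, in endothelial-like cells 1, 1, 2, 8, 1 and 0 of the 6 lists in the order given here, and there the counts with no filter were 2, 1, 7, 12, 3 and 2. Of 3 further VEGF ligands and receptors, 3 were tested and 2 were called higher in endothelial-like cells, with a median log2 fold change of 4.45 against 0.35 over all genes. Flt4, the receptor of VEGF-C, was at 113, 88.5 and 99.5 CPM there (log2 fold change 7.72), and Nrp2, a second co-receptor, at 232, 305 and 133 CPM (4.45). Nrp2 was also called in tumor-like cells, at 36.2, 93.9 and 72.9 CPM (2.81). Vegfd, a ligand of Flt4, was called in CAF-like cells (7.99), with 276 CPM in tumor 1 and 0 (up to 24.0 CPM) in tumor 3. There 1 gene of this list passed the filter through CAF-like sums alone, so the call is not independent of the filter. With no filter, 1 gene of the list was called in CAF-like cells. DESeq2 called 1 gene of the list in endothelial-like cells and 0 in tumor-like and CAF-like cells. Macrophage-like and neutrophil-like cells had 0 calls by either tool, with 1 and 0 higher at an unadjusted p under 0.05.

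Of 5 regulators of angiopoietin signaling, 3 were tested. Ptprb, a phosphatase that acts on Tek, was called in endothelial-like cells at 945, 767 and 912 CPM (log2 fold change 9.76), and it was the sole call of the list there, whose median was -0.33. In CAF-like cells 2 were called, among them Svep1, an extracellular protein that binds Tie1, at 237 and 40.1 CPM in tumors 1 and 3 (8.36), with a list median of 3.08 against 0.41. Of the 3 genes tested, 1 passed the filter through CAF-like sums alone, so this count is not independent of the filter. With no filter, 2 of 5 were called in CAF-like cells. DESeq2 called 1 of the list in endothelial-like and 0 in CAF-like cells. The other classes had 0 calls by either tool, with 1 higher in macrophage-like cells and 0 in the others at an unadjusted p under 0.05. Angpt1, the agonist ligand of Tek, had a mean of 6.04 CPM in endothelial-like cells, from 2 UMIs, and 4.54 CPM in CAF-like cells of tumors 1 and 3. The CAF-like class held 3 Angpt1 UMIs, of which 1 lay in tumor 2 and did not enter this mean.

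Nrp1 partners, the semaphorins and plexins, gave 8 tested genes of 12. In endothelial-like cells 6 of 8 were called higher, where 11.6% of all genes were, with a median of 5.25, led by Sema3f (7.77), Plxna2 (7.11), Sema3g (7.06) and Plxna4 (5.29) on the log2 scale. CAF-like cells had 4, Sema3c (7.19), Sema3d (6.38), Plxna1 (4.42) and Plxnd1 (1.67), tumor-like cells 3, macrophage-like cells 2, Plxna1 (3.45) and Plxnd1 (2.76), and neutrophil-like cells 0 by edgeR and DESeq2, also at an unadjusted p under 0.05. Of the 8 genes tested, 2 passed the filter through CAF-like sums alone, so the CAF-like count is not independent of the filter. With no filter, 6 of 12 were called in CAF-like cells. The tumor-like 3 of 8 is near the 27.4% of all genes called there. DESeq2 called 5 in endothelial-like, 2 in macrophage-like, 1 in CAF-like and 0 in tumor-like cells.

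Of the 13 genes of tip cells and Notch signaling, 12 were tested and all 12 were called higher in endothelial-like cells, with a median log2 fold change of 7.15 against 0.35. Of these, 8 passed the filter on low counts through endothelial-like sums alone, so the count is not independent of the filter. With no filter, 12 of 13 were called. Esm1, a secreted product of tip cells, stood at 206, 816 and 704 CPM in tumors 1, 2 and 3, with a log2 fold change of 9.60 (adjusted p = 2.4e-11 by edgeR's quasi-likelihood test and Benjamini-Hochberg). Aplnr (8.92), Kcne3 (8.91) and Apln (8.16) followed on the log2 scale. In CAF-like cells 3 were called, Jag1 (6.53), Unc5b (5.91) and Nid2 (5.55), in tumor-like cells 1, Jag2 (3.83), in neutrophil-like cells 1, Notch1 (3.32), and in macrophage-like cells 0 by edgeR and DESeq2, also at an unadjusted p under 0.05. DESeq2 also called 12 in endothelial-like cells and 3 in CAF-like cells, and in tumor-like cells it called 0 higher and 1 lower.

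Of 6 endothelial genes known to be induced by VEGF, all 6 were tested. In endothelial-like cells 3 were called, Nos3 (log2 fold change 6.81), Adamts1 (6.17) and Hlx (5.65), with a median of 3.79. CAF-like and neutrophil-like cells also had 3 each, with Adamts1 (6.08), Egr3 (3.67) and Rcan1 (3.25) in the former and Hlx (5.56), Dusp5 (3.52) and Rcan1 (3.40) in the latter, so these genes were not limited to the endothelium. Macrophage-like cells had 1 (Rcan1, 3.19) and tumor-like cells 0 by edgeR, also at an unadjusted p under 0.05. DESeq2 called 3 in endothelial-like, 3 in neutrophil-like and 1 in CAF-like cells and 0 in macrophage-like cells, and in tumor-like cells it called 0 higher and 1 lower.

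Among 15 genes regulated by hypoxia-inducible factors, of which Vegfa is a known target, 14 were tested. Neutrophil-like cells had the highest count, 9 of 14 where 14.3% of all genes were higher (3 of the 14 passed the filter through neutrophil-like sums alone, and with no filter 9 of 15 were called), with a median log2 fold change of 2.15 against 0.23 over all genes. Egln3 (5.28), Bnip3 (4.41), Slc2a1 (4.39) and Ankrd37 (4.11) led there, and Slc2a1, a glucose transporter, was at 304, 165 and 44.8 CPM in tumors 1, 2 and 3. CAF-like cells had 4 calls, among them Adm (6.31), endothelial-like cells 2, Adm (3.62) and Ndrg1 (3.47), tumor-like cells 1, Mxi1 (1.30), and macrophage-like cells 0 by edgeR and DESeq2, with 2 higher at an unadjusted p under 0.05. DESeq2 called 10 in neutrophil-like, 2 in endothelial-like and 1 in CAF-like cells, and in tumor-like cells 0 higher and 4 lower. Of all genes, it called 14.5% higher in neutrophil-like and 16.8% lower in tumor-like cells. By edgeR, 0 genes of these lists were lower in any of the 5 classes, with 1 lower at an unadjusted p under 0.05, a gene of this list in tumor-like cells.

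Genes with the most similar pattern were sought by Pearson correlation of log2 levels over the means of the 12 classes among 11018 genes, a description over classes that share tumors and depth. The 3 most like Tie1 were Robo4 (r = 1.0), Gja5 (0.999) and Exoc3l2 (0.999). For Flt1 they were Scarf1, Tspan12 and Apold1 (0.997 each), for Kdr Gm16486 (0.968), Fzd6 (0.965) and Flt4 (0.958), and for Tek Cyp4b1 (0.997), Hoxb8 (0.993) and Fat4 (0.993). Nrp1 was most like Dusp7 (0.946), Chml (0.945) and Ece1 (0.927), and Angpt2 most like Atp8b1 (0.952), Abcc9 (0.950) and Tfpi2 (0.945). Abcc9 is a pericyte marker. Vegfc was closest to Dab2 (0.964), Arhgef5 (0.960) and Palmd (0.960). Vegfb was closest to Ecel1 (0.877), Psmg2 (0.875) and Slc38a4 (0.867), and Vegfa to Ttll4 (0.814), Gm5617 (0.781) and Kctd20 (0.762), the lowest values of the members. Pgf had fewer than 100 UMIs and was not compared.

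Kdr, Flt1, Tek and Tie1 were all high in endothelial-like cells, and their promoters are shown because factors of the ETS family, which bind a core of GGAA (TTCC on the other strand), are known to act at endothelial genes. In the 250 bases before the RefSeq start of each gene, on GRCm38.p6, the core was found 4 times in Kdr, 4 in Flt1, 2 in Tek and 7 in Tie1, both strands counted. It occurs in 93.4% of 32851 promoters of the same length, with a median of 3, and 76.8% of them have at least 2, 33.4% at least 4 and 3.82% at least 7. These matches are a description of the sequence. The sequences are written 5′ to 3′ on the strand of the gene with the core in capitals, and the Tie1 window is not printed because 212 of its 250 bases lie within the gene as annotated in GENCODE, so its 7 matches are not all before the annotated start. In the Kdr window 3 bases lie within the annotated gene, and in those of Flt1 and Tek 0. The windows are chr5:75978456-75978705 (minus strand) for Kdr, chr5:147726012-147726261 (minus strand) for Flt1 and chr4:94739039-94739288 (plus strand) for Tek.
Kdr: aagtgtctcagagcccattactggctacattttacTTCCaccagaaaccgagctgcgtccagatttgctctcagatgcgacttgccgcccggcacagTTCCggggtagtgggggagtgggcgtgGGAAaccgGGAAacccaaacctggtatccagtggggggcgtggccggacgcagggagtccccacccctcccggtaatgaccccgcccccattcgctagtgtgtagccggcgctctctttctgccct
Flt1: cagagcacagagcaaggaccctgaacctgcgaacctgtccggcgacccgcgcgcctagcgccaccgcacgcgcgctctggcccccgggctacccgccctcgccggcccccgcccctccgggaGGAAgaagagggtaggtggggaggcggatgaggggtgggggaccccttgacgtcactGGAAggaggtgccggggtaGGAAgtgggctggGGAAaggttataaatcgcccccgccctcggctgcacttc
Tek: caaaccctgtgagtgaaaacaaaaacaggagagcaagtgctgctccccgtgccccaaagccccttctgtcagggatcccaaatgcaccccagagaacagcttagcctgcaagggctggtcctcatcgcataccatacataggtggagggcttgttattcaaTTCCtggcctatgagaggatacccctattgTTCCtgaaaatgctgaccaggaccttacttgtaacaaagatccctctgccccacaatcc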

How the data were processed

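Single-cell RNA of 3 whole TH-MYCN tumors was analysed. The authors deposited raw UMI counts for each gene and barcode, made with Cell Ranger 3.1.0 and without further normalization. The second set of deposited values is on a natural log scale, ln(1 + count), where the count was first corrected for ambient RNA and where doublets and barcodes beyond limits chosen per tumor had been taken out. These corrected counts were not always below the raw ones. In tumor-like cells of tumor 1, Tie1 had 10 corrected against 4 raw UMIs, and Nrp1 16 against 10. Pooled over tumors, Vegfc in mesothelial-like cells fell from 30 to 6. The corrected counts thus differ from the raw ones by more than a removal of ambient RNA, and what else was changed was not tested. Barcodes in the normalized files were taken as the kept cells, no further doublets were removed, and raw counts were used except in 1 alternative. Gene positions are from the annotation of GRCm38.

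Cells were clustered with Seurat 5.3.0 in R 4.3.3 (2000 variable genes without the 10 members and the pathway lists, integration by canonical correlation on 30 dimensions, resolution 1, and 0.5 on 20 dimensions for macrophage subsets). A cluster was named X-like when at least 3 markers of X had a fold of at least 2 over the median of the other clusters with UMIs in at least 10% of the cluster, at least 60% of the list among them, the type with the most markers among its 50 leading genes being taken. This was the last of 4 naming rules tried. It was set after the clusters had been seen, and its thresholds were chosen with the marker scores of clusters 11 and 14 in view, so that these stayed unnamed. Apart from the first rule, which left the tumor-like clusters unnamed, the rules differed in these 2 clusters. Unnamed cells made up 6.58%, 1.47% and 3.42% of the kept cells of tumors 1, 2 and 3.

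Counts were summed per tumor and class over at least 10 cells. All classes were fitted together in edgeR 4.0.16 (filter on low counts, TMM factors, quasi-likelihood test), each class against the unweighted mean of the others on the log scale, with p adjusted by Benjamini-Hochberg over all genes tested and a threshold of 0.05. Classes with a lone sum are assumed to vary like the others. The 3 tumors are the replicates, and the classes within a tumor share an animal. Over 2228 genes, deviations from class means had a mean correlation of 0.442 between classes of the same tumor (45 pairs) and -0.209 between tumors (90 pairs), so a fit with the tumor as a block was among the alternatives. The test was tried on simulated data. Its power was low for genes lower in a class, so few lower calls do not show equal levels.

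The alternatives were other clustering settings, a cell by cell marker gate, the corrected counts, other normalizations and filters, DESeq2 1.42.0, leaving out each tumor, and the earlier naming rules. Shares have exact (Clopper-Pearson) binomial intervals at 95%, the limit of a count of 0 is taken as 3 counts, and both cover counting error alone. Python 3.11.15, numpy 2.4.6, scipy 1.17.1 and pandas 2.3.3 were used for the descriptions.

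All 10 members are named. Beyond them, up to 4 genes per list and comparison are named, the called genes with the largest fold change whose higher group averaged 20 CPM or more, and for members with at least 100 UMIs the 3 genes most like them by Pearson correlation of log2(CPM + 10) over the class means. Angpt1, Abcc9 and the markers were named for their role. Members and lists were chosen with earlier results of these data known. The planned subclustering of CAF-like cells was replaced by the clusters at a resolution of 2.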

Additional observations from a re-analysis of the deposited data

Results flagged for a closer look

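Barcodes that the authors did not keep entered no comparison, yet they held UMIs of all 10 genes, above the limit that a count of 0 allows. Of all UMIs, they held 65.2% (27.1%, 87.4% and 74% in tumors 1, 2 and 3), and the shares of single genes are to be read beside these. Of the ligands, they held 1377 of 1793 Vegfa UMIs (76.8%), 1318 of 1811 Vegfb UMIs (72.8%), 39 of 177 Vegfc UMIs (22.0%), 73 of 173 Pgf UMIs (42.2%) and 384 of 709 Angpt2 UMIs (54.2%). Of the receptors, they held 432 of 1007 Kdr UMIs (42.9%), 491 of 1198 Flt1 UMIs (41.0%), 1462 of 2355 Nrp1 UMIs (62.1%), 56 of 174 Tek UMIs (32.2%) and 176 of 489 Tie1 UMIs (36.0%).

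The tumors differed in this. In tumor 1, Kdr was at 83.3 CPM in the removed barcodes and at 32.4 CPM in the kept cells, and Flt1 at 93.2 and 39.6 CPM. In tumors 2 and 3, Kdr was at 0.838 and 1.69 CPM in the removed barcodes, against 21.2 and 20.7 CPM in the kept cells. Vegfa was at 23.0, 42.3 and 31.2 CPM in the removed barcodes of tumors 1, 2 and 3, against 18.7, 25.5 and 21.1 CPM in the kept cells. The median depth of the removed barcodes was 925, 5352 and 3703 UMIs in tumors 1, 2 and 3, against 4282, 1594 and 1816 in the kept cells. They were thus the shallower barcodes in tumor 1 and the deeper ones in tumors 2 and 3. They held 31.4%, 92.0% and 80.8% of the Vegfa UMIs of tumors 1, 2 and 3, so the sources of Vegfa given above are those among kept cells. The removed barcodes were not assigned to classes, and what else set them apart was not tested.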

How the results depend on the processing

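In endothelial-like cells, Kdr, Flt1, Nrp1, Angpt2 and Tie1 were called in each of 24 settings, and Tek in 23. Of the values of single genes under the alternatives, 320 kept their direction and side of the threshold, 32 kept the direction but were no longer called and 3 reversed. Of the counts, shares and subset values, 222 stayed within their limits, 81 moved, 2 became called and 1 reversed. The causes were not tested except where stated.

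Members called higher in endothelial-like cells fell from 8 to 5 with DESeq2. In tumor-like cells DESeq2 called 1.55% of all genes higher and 16.8% lower. In CAF-like cells they fell from 6 to 3 with DESeq2 and to 3 against all other cells of the same tumor summed together, where 1 member was called lower. In tumor-like cells, with 2 in the main setting, 0 were called at a resolution of 0.5, at a resolution of 2, with 20 dimensions, with the held-out genes allowed, with the corrected counts, without the 5% of cells with the most UMIs and with DESeq2. There was 1 without integration, with sums of at least 5 cells and against all other cells summed together, where 5 members were called lower. Shares of all genes are given for the main setting, DESeq2, the replicate block, the fit with no filter and that without tumor 1, and for no other setting. Counts under the other settings, the comparison with all other cells and the marker gate among them, cannot be set against the background in any class. In macrophage-like cells the call of 1 member was 0 at a resolution of 0.5, with 20 dimensions, without integration, with the held-out genes allowed, under the marker gate, with the corrected counts, without the 5% of cells with the most UMIs, with sums of at least 5 cells, with DESeq2 and against all other cells, and 2 with the replicate block, which added Nrp1. In neutrophil-like cells it was 0 at a resolution of 0.5, with 20 dimensions, without integration, with the held-out genes allowed, with the corrected counts, with sums of at least 5 cells and against all other cells, and 2 under the marker gate.

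Leaving out each tumor in turn gave 0 to 1 members in tumor-like, in macrophage-like and in neutrophil-like cells. Part of these losses comes from the filter on low counts, since Vegfa and Vegfc were tested in 14 of 24 settings, Vegfb in 18 and Pgf in 23.

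Further alternatives were chosen after seeing the data. Naming rules 2 and 3 gave 0 members in tumor-like cells. Naming rules 1, 2 and 3 gave 0 in macrophage-like and 0 in neutrophil-like cells, where Vegfa was not tested, and rule 1 named no tumor-like cells. The marker gate without the erythroid list, added because the gate had named many cells erythroid-like, gave 3 in neutrophil-like cells, again without a share of all genes to set beside it. Assigning cluster 11 to neutrophil-like or cluster 14 to tumor-like cells left all these counts within their limits.

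The CAF-like log2 fold change of Angpt2 reversed to -0.93 at a resolution of 2, where the pericyte-like cells that hold it are a class of their own and the mesothelial-like cells are in the CAF-like class. That of Tek reversed to -1.11 without the 5% of cells with the most UMIs, and ranged from -1.27 to 5.58 on leaving out a tumor. With the replicate block, 1 member (Nrp1) was called higher in Apoe+-like cells, as were 8.27% of all genes (2.04, adjusted p = 0.0055), and in Pecam1+-like cells it was called lower, as were 4.46% (-2.11, adjusted p = 0.016, both from edgeR's quasi-likelihood test and Benjamini-Hochberg). In Ccr2+-like cells Nrp1 ranged from -0.33 to 0.49 on leaving out a tumor. Without tumor 1 and with the corrected counts it was below the filter in the subsets.

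Under the marker gate, shares of UMIs moved to 28.2% for Vegfa in macrophage-like and 25.0% in tumor-like cells, with 23.5% in erythroid-like cells, and to 46.8% for Vegfb in tumor-like, 29.0% for Vegfc in macrophage-like, 5.21% for Pgf and 7.52% for Angpt2 in CAF-like, and 68.1% for Kdr, 71.0% for Flt1 and 87.9% for Tie1 in endothelial-like cells. As means of the shares within tumors they were 28.1% for Vegfa, 20.5% for Vegfc, 82.4% for Kdr, 83.8% for Flt1, 40.1% for Nrp1, 36.0% for Angpt2 and 96.8% for Tie1. With the corrected counts they were 77.9% for Vegfb, 67.2% for Vegfc, 44.4% for Pgf, 36.2% for Nrp1, 31.2% for Angpt2, 90.7% for Tek and 85.7% for Tie1.

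The share of endothelial-like cells with a UMI depends on depth by construction. Unthinned it was 63.9% for Kdr, 67.0% for Flt1, 60.8% for Nrp1, 29.9% for Angpt2, 34% for Tek and 58.8% for Tie1, and thinned to 1000 UMIs it was 39.3% for Kdr and 30.3% for Nrp1.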
